A study of Mus musculus with 6 samples.

Results

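The 9 genes described here make and load major histocompatibility complex (MHC) class I molecules, and they were read in 6 lung metastases of MMTV-Myc mouse mammary tumours. B2m, H2-K1 and H2-D1 encode the light chain and the classical heavy chains. Tap1, Tap2 and Tapbp serve peptide transport and loading, and Psmb8, Psmb9 and Psmb10 encode the catalytic subunits of the immunoproteasome. The genes were listed by name and selected on an earlier reading of these same signals, so their levels and group differences are given as a description, and the fits across all probe sets printed beside them are no independent support. Each was represented by the probe set that carries its symbol alone and has the highest mean over the 6 arrays. All 9 had such a probe set, among 12393 genes so represented, and all 9 passed the filter on dim probe sets.

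Of the metastases, 3 were labelled Myc E2F2 KO (KO) and 3 Myc E2F3 Het (Het), all of strain FVB. All 6 arose in MMTV-Myc animals in which a mouse mammary tumour virus promoter drives the Myc oncogene mainly in mammary epithelium. The tissue was flash frozen at endpoint, and no group without an E2F allele change was analysed here. No ages are given in the labels. One and the same number stands in the titles of all 3 Het arrays, and a different one in each KO title. What it identifies is not stated in the labels, so the 3 Het metastases may come from 1 mouse. Replicates are numbered in accession order, so Het replicates 1, 2 and 3 are the arrays titled LM2, LM1 and LM3. If they share a mouse, genotype and mouse cannot be told apart.

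In every nucleated cell, proteasomes cut cytosolic proteins into peptides, the TAP transporter moves them into the endoplasmic reticulum, and tapasin (Tapbp) holds the empty class I molecule beside TAP until a peptide fits. Interferon gamma is known to raise this whole pathway, in part by replacing the constitutive catalytic subunits Psmb5, Psmb6 and Psmb7 with Psmb8, Psmb9 and Psmb10. Class I molecules show peptides to CD8 T cells, and carcinomas often differ in how much class I they carry. FVB mice carry the q haplotype of the H2 complex, whereas the reference sequences below are those of C57BL/6J, which carries haplotype b.

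Upstream sequences of 4 of the genes are shown as background, and their part in the levels was not tested. They are RefSeq sequences of build GRCm38.p6, covering the 250 bases before an annotated transcription start, written 5′ to 3′ on the gene's strand. Windows were found for 8 of the 9 genes; Tap2 is named only. Capitals mark matches on either strand to AANNGAAA (the core bound by interferon regulatory factors), the NF-κB consensus, TGACG (the core of cyclic AMP response and X2 elements) and CCAAT. Overlapping matches are joined, as in the NF-κB matches of H2-K1 and H2-D1. The B2m sequence lies at chr2:122147437-122147686 on the plus strand and that of H2-K1 at chr17:34000348-34000597 on the minus strand. H2-D1 is at chr17:35262844-35263093 and Tap1 at chr17:34187306-34187555, both on the plus strand.
B2m: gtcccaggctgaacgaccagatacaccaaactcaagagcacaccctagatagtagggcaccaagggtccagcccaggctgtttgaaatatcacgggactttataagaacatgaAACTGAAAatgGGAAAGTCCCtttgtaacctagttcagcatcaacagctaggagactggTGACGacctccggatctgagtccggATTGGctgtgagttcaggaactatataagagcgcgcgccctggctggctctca
H2-K1: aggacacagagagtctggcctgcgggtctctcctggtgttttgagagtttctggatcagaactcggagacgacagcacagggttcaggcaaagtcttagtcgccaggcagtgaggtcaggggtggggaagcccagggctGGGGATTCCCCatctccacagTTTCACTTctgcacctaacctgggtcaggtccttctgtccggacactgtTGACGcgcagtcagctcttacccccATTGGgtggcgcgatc
H2-D1: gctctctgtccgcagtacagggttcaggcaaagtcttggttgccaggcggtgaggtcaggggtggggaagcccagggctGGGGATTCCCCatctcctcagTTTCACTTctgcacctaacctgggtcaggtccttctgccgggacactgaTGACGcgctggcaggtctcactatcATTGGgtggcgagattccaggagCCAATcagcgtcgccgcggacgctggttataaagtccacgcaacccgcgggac
Tap1: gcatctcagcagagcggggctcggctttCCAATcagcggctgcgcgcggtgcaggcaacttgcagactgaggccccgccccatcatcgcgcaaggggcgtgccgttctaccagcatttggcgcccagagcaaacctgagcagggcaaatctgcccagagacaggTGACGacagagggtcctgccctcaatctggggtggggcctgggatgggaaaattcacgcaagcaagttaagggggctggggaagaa

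All 4 motifs were found upstream of B2m, H2-K1 and H2-D1, and in 0.0822% of all 32851 mouse windows of this length. Single motifs were common, with AANNGAAA in 21.3% of windows, the NF-κB consensus in 7.25%, TGACG in 17.8% and CCAAT in 33.8%. The H2-K1 and H2-D1 sequences shared 166 of 190 aligned bases (87.4%), without gaps. Tap1 and Psmb9 are transcribed away from each other, with 225 bases between their starts, and these 225 bases are upstream of both genes, on opposite strands. The Tap1 sequence, which also covers the first bases of Psmb9, holds TGACG and CCAAT and no match to the NF-κB consensus or AANNGAAA. Neither TGACG nor AANNGAAA was in the windows of Tapbp, Psmb8 and Psmb10. TTCNNNGAA, the palindrome of interferon gamma activated sites, was in the window of Psmb8 and in no window of the other 7 genes, against 7.02% of all windows. These are matches of letters, and binding was not measured.

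Trimmed mean signals were 500.2 on each of the 6 arrays, with medians from 137.6 to 164.8. The 3′ to 5′ signal ratio of actin was 2.37 on Het replicate 1, against 1.48 to 1.73 on the other 5 arrays, and that of the transferrin receptor was 11.8, against 3.25 to 5.15. The array on which the class I genes were lowest, Het replicate 2, had ratios of 1.67 for actin and 3.25 for the transferrin receptor, which was the lowest of the 6. E2f2 had no probe set of its symbol alone, so its loss could not be checked. E2f3 had 91.6, 91.4 and 137.9 in KO against 87.2, 144.2 and 73.0 in Het metastases, with overlap. Signals are intensities on a linear scale, and levels of different genes are not compared because probe sets differ in brightness. In whole metastases, fewer cells of a type and less RNA per cell cannot be told apart.

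**Figure D1:**
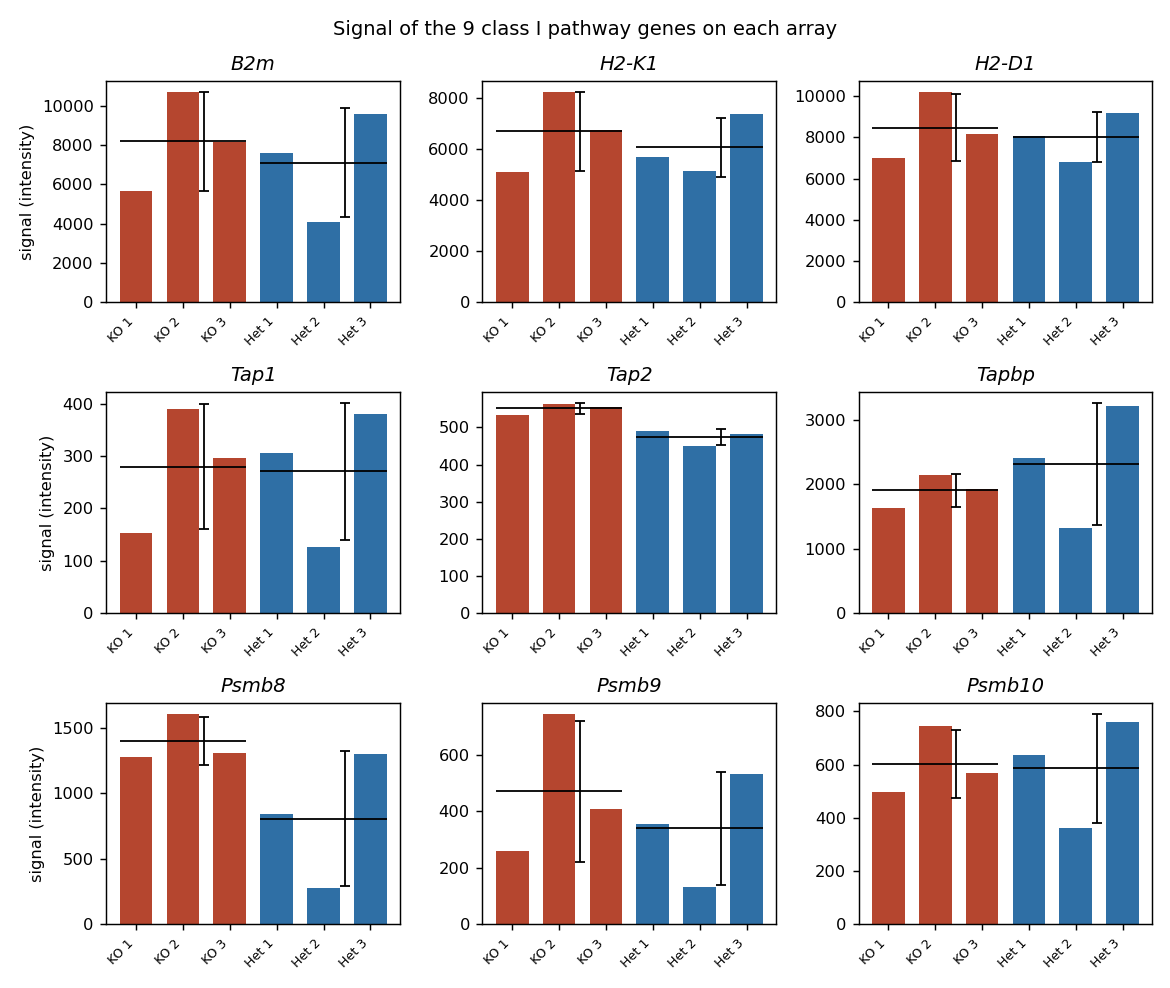
Signal of each gene on the 3 KO arrays (red bars) and the 3 Het arrays (blue bars), as linear intensity from 0; horizontal lines are group means and error bars are SD over 3 arrays. Het replicate 2 has the lowest bar for 8 of the 9 genes, and KO replicate 2 has the highest for 7.

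The levels of the 9 genes, Tap2 excepted, followed single metastases more than the genotype labels. Het replicate 2 was the lowest of the 6 arrays for 8 genes and the lowest Het array for all 9. KO replicate 2 was the highest of the 6 for 7 genes, and Het replicate 3 was the highest for Tapbp and Psmb10. Over all 13575 probe sets tested, 17.7% were lowest in Het replicate 2 and 14.9% highest in KO replicate 2. Of the KO arrays, replicate 1 was the lowest and replicate 2 the highest for all 9 genes.

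The light chain gene B2m, whose product every class I molecule needs to reach the surface, had signals of 5681, 10744 and 8185 in KO replicates 1 to 3, against 7602, 4101 and 9613 in Het replicates 1 to 3. The highest array was 2.62 times the lowest, and the groups overlapped. Mean B2m signal was 8203 ± 2531 over the KO arrays and 7105 ± 2790 over the Het arrays (SD, n = 3 for both). KO minus Het came to 0.25 on the log2 scale (SE 0.35), with a limma adjusted p of 0.9999. The dimmer probe set of B2m ran in the same order of arrays, with 4392, 9185 and 6793 in KO against 5191, 3192 and 7597 in Het metastases.

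H2-K1 and H2-D1, the classical heavy chains that hold the peptide, moved in a narrower span by their brightest probe sets. H2-K1 had signals of 5108, 8219 and 6732 in KO metastases, against 5687, 5140 and 7347 in Het metastases. H2-D1 had 6989, 10225 and 8186 in KO metastases, against 8042, 6797 and 9195 in Het metastases. For both genes KO replicate 2 was highest, and KO replicate 1 and Het replicate 2 were the 2 lowest arrays. The log2 difference was 0.13 (SE 0.28) for H2-K1 and 0.07 (SE 0.24) for H2-D1, both with limma adjusted p = 0.9999. These probe sets carry a suffix that marks possible cross-hybridisation, and class I heavy chains are closely related in sequence, so signal cannot be assigned firmly to 1 of them.

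Of the 16 other probe sets of the 9 genes, 8 passed the filter on dim probe sets, and all 8 were highest in KO replicate 2. Of these 8, 5 were lowest in Het replicate 2, and 7 had a higher mean in KO. The dimmest of H2-K1 was lower in KO, at -0.35 (SE 0.67) on the log2 scale. It had 72.5, 244.2 and 80.6 in KO against 160.6, 86.0 and 238.2 in Het metastases. Among them, 1 of H2-D1 without that suffix had signals of 408.0, 787.1 and 510.8 in KO metastases, against 509.5, 343.1 and 718.1 in Het metastases. A dimmer probe set of H2-K1 stood apart in KO replicate 2, with 636.5, 1814 and 765.6 in KO against 949.4, 660.0 and 832.7 in Het metastases. It ranged 1.49 and the dimmest of H2-K1 1.56, against 0.68 for the brightest. The next brightest probe sets of H2-K1 and H2-D1 ranged 0.68 and 0.61, and a further tested one of H2-D1 ranged 1.02. A further 3 probe sets carried several symbols, including H2-K1 or H2-D1, and were not used here.

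Tap1, a chain of the peptide transporter, varied about as widely as B2m. Its signals were 152.7, 390.0 and 295.4 in KO metastases, against 305.2, 125.5 and 381.2 in Het metastases, so each group held 1 low array. The highest array was 3.11 times the lowest, and KO minus Het was 0.08 (SE 0.51) on the log2 scale, with limma adjusted p = 0.9999. The other 3 Tap1 probe sets were dim on all arrays and did not pass the filter.

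Tap2, the partner chain of the transporter, was nearly flat. It had signals of 534.4, 563.9 and 556.2 in KO metastases, against 490.4, 450.9 and 483.6 in Het metastases. The highest array was 1.25 times the lowest, and the KO arrays all lay above the Het arrays. Tap2 was the 1 member without overlap, higher in KO, against 7.82% of all probe sets tested. KO minus Het was 0.21 (SE 0.23) on the log2 scale, with limma adjusted p = 0.9999, and ran from 0.17 to 0.23 when any 1 array was left out. The difference of Tap1 minus Tap2, each relative to its mean, was -0.74, 0.45 and 0.09 in KO and 0.31, -0.75 and 0.64 in Het metastases on the log2 scale.

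Tapbp, which bridges class I and TAP, had signals of 1639, 2151 and 1926 in KO metastases, against 2402, 1323 and 3221 in Het metastases. The Het arrays held both the highest and the lowest level. Tapbp was the 1 member with a lower mean log2 level in KO, at -0.20 (SE 0.24), with limma adjusted p = 0.9999. Its dimmer probe set disagreed, at 0.62 (SE 0.28), with 271.3, 345.0 and 257.7 in KO against 130, 167.1 and 278.4 in Het metastases. Without Het replicate 2, the brighter probe set was at -0.55, and its KO arrays all lay below the remaining Het arrays. The same held for 2108 of the 13575 probe sets tested with that array left out.

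**Figure D2:**
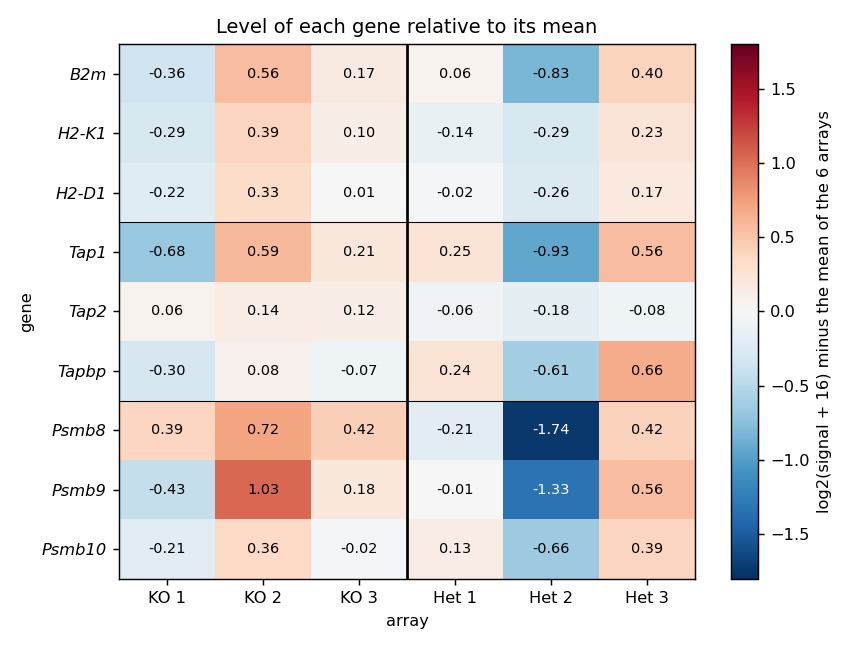
Level of each gene on each array as log2(signal + 16) minus its mean over the 6 arrays, with red above and blue below the mean; KO arrays are left of the vertical line and Het arrays right of it. The column of Het replicate 2 is below 0 for all 9 genes, down to -1.74 for Psmb8, and the column of KO replicate 2 is above 0 for all 9.

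The immunoproteasome genes had the widest span of the 3 roles in their mean level. Psmb8 and Psmb9 ranged 2.46 and 2.36 over the 6 arrays on the log2 scale. Psmb10 ranged 1.05, less than B2m (1.39), Tap1 (1.52) and Tapbp (1.27). The mean level of the immunoproteasome genes relative to the 6 arrays lay at -0.08, 0.70 and 0.19 in KO and at -0.03, -1.24 and 0.46 in Het metastases (log2 scale). For the class I chains it lay at -0.29, 0.42 and 0.09 in KO and at -0.03, -0.46 and 0.27 in Het metastases. For transport and loading it lay at -0.31, 0.27 and 0.08 in KO and at 0.15, -0.57 and 0.38 in Het metastases.

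Psmb8, the chymotrypsin-like subunit that takes the place of Psmb5, had signals of 1279, 1604 and 1305 in KO metastases, against 837.3, 278.7 and 1301 in Het metastases. The KO arrays spanned 0.32 and the Het arrays 2.16 on the log2 scale, and the groups overlapped through Het replicate 3. Mean Psmb8 signal was 1396 ± 181 over the KO arrays and 805.6 ± 511.8 over the Het arrays (SD, n = 3 for both). Its log2 difference of 1.02 was the largest of the 9 (SE 0.24), with limma adjusted p = 0.9999. That SE rests on the spread of the KO arrays, adjusted by limma towards that of probe sets of like brightness. The spread of the Het arrays does not enter it. With each array as a sample the SE was 0.48 (limma adjusted p = 0.509), and without Het replicate 2 the difference was 0.41.

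Psmb9, which takes the place of Psmb6, had signals of 259.8, 744.8 and 406.7 in KO metastases, against 353.5, 131.8 and 532.1 in Het metastases. It differed 5.65-fold over the 6 arrays, against 5.76-fold for Psmb8, and KO minus Het was 0.52 (SE 0.56) on the log2 scale, with limma adjusted p = 0.9999. Without Het replicate 2 this difference was -0.01. In KO replicate 1, Psmb8 was above its mean and Psmb9 below, 0.83 apart on the log2 scale. On the other 5 arrays the same distance ran from -0.41 to 0.24.

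Psmb10, which takes the place of Psmb7, had signals of 497.2, 743.6 and 567.0 in KO metastases, against 634.5, 360.0 and 761.7 in Het metastases. Its arrays overlapped almost entirely, and KO minus Het was 0.09 (SE 0.30) on the log2 scale, with limma adjusted p = 0.9999. All 3 immunoproteasome genes were lowest in Het replicate 2.

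**Figure D3:**
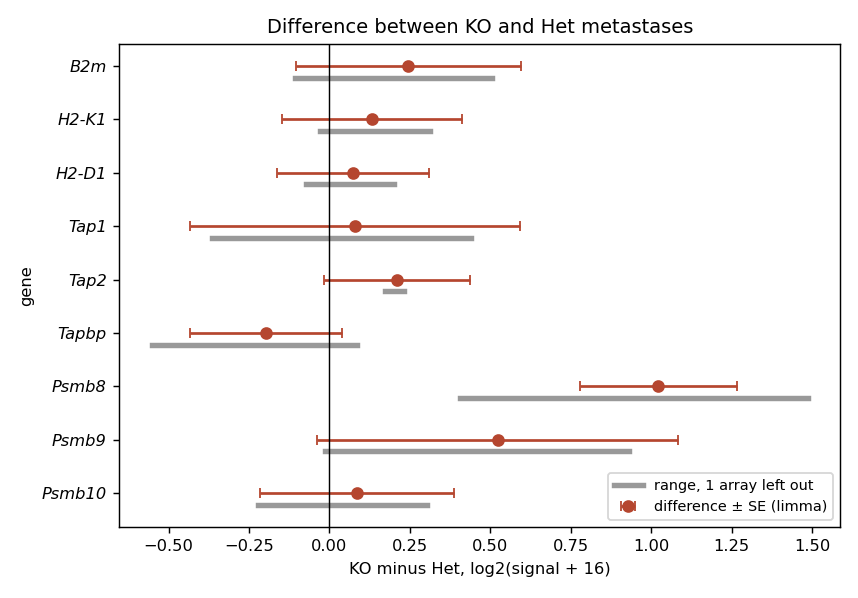
KO minus Het difference of each gene on the log2(signal + 16) scale, as points with the limma SE; grey bars span the differences when any 1 of the 6 arrays is left out. The grey bars of 7 genes cross 0, and those of Tap2 and Psmb8 stay above it.

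With limma on the 3 KO samples against the mean of the Het arrays, 0 of the 9 genes had an adjusted p under 0.05, and 0% of the 13575 probe sets did. At an unadjusted p under 0.05 stood 1 of the 9, Psmb8, against 2.22% of all probe sets; with each array as a sample, 0 probe sets also passed adjustment and 1394 had an unadjusted p under 0.05, with 0 of the 9 genes among them. Psmb8 also missed that unadjusted threshold without Het replicate 2 and with a random block for the title number. The mean was higher in KO for 8 of the 9 genes, against 47.6% of all probe sets. The median log2 difference was 0.13 over the 9 genes, against -0.02 over all probe sets. Leaving out KO replicate 2 gave -0.03, and leaving out Het replicate 2 gave -0.04. It was 0.31 without KO replicate 1, 0.30 without Het replicate 3 and 0.23 without Het replicate 1. The p-values of the main fit rest on the spread among 3 KO arrays, adjusted by limma towards that of probe sets of like brightness. No label says that these 3 arrays came from separate animals.

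Except for Tap2, the Het arrays of each gene spanned more than the difference between the group means. Averaged over the 9 genes, the level relative to the 6 arrays was -0.23, 0.47 and 0.12 in KO and 0.03, -0.76 and 0.37 in Het metastases (log2 scale). It spanned 0.69 among the KO arrays and 1.13 among the Het arrays. The Het arrays spanned more than the KO arrays for 7 of the 9 genes, with H2-K1 and H2-D1 as the exceptions. The tested H2-D1 probe set without a cross-hybridisation suffix spanned 1.03 in Het and 0.92 in KO metastases. Over the 6 arrays, the median range of the 9 genes was 1.27 on the log2 scale, against 0.66 for all probe sets tested. Tap2 and H2-D1 were the 2 genes with a range below that median, though the tested H2-D1 probe set without the suffix ranged 1.16.

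**Figure D4:**
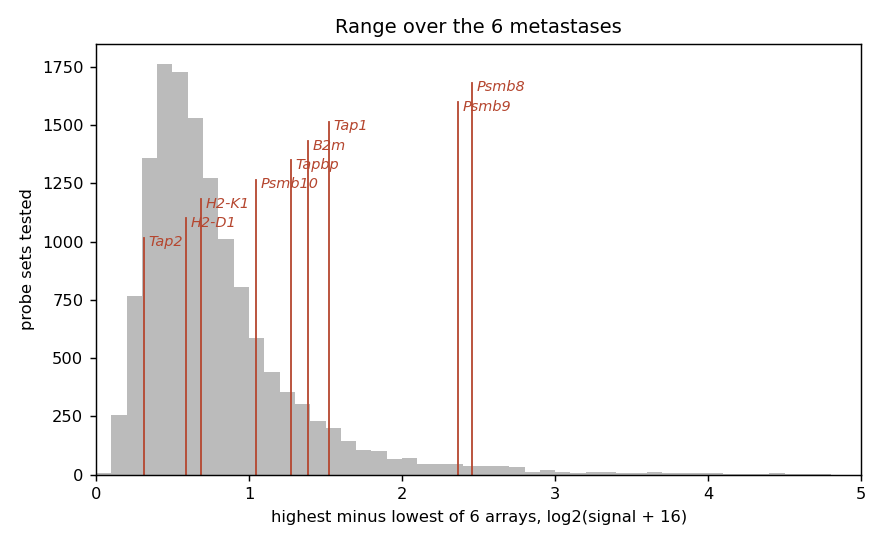
Histogram of the range over the 6 arrays, highest minus lowest log2(signal + 16), for the 13575 probe sets tested (grey), with the 9 genes as red lines. Tap2 lies at 0.31 and H2-D1 at 0.59, below the median of 0.66, and Psmb9 and Psmb8 lie at 2.36 and 2.46.

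Most of the 9 genes followed each other from array to array. Over the 6 arrays, Pearson's r was above 0.8 in 22 of the 36 pairs, as a description of these arrays, 3 of which share a title number. No share over pairs of other genes is given beside this count. Het replicate 2, the lowest array for 8 of the 9 genes, enters each value. Pearson's r was 0.99 for B2m and Psmb9, 0.97 for H2-K1 and H2-D1, and 0.94 for Tap1 and Psmb9, the pair that share an upstream sequence. Tap1 and Psmb9 each had higher values with B2m (0.97 for Tap1, 0.99 for Psmb9) and with Psmb10 (0.95 and 0.96), which lie on other chromosomes. B2m is on chromosome 2, Psmb10 on chromosome 8, and the other 7 on chromosome 17. Tap2, which lies next to Psmb8 among the members on chromosome 17, had an r of 0.82 with Psmb8. It also had the lowest value of all pairs, 0.09 with Tapbp.

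Ranked by r to the mean of the 9 genes among 7948 other genes, the closest were Cbr4, Cenpn, Fbxo33, Daglb, Ifi47, Itpa, Aamp, Irgm1, Gbp2 and Eef1b2, at 0.97 to 0.99. The interferon-inducible GTPase genes Ifi47, Irgm1 and Gbp2 had wide ranges of 2.65, 2.65 and 2.45 on the log2 scale. The other 7 had ranges of 0.13 to 0.74. Irgm1 had signals of 341.9, 1113 and 701.3 in KO metastases, against 714.6, 204.1 and 1368 in Het metastases. Of the 7948 genes, 58 had an r above 0.9 and 62 below -0.9.

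The median range over the 6 arrays was 0.60 for the 3 constitutive catalytic subunits, against 2.36 for the 3 immunoproteasome genes (log2 scale). Psmb5 had signals of 2481, 2562 and 2702 in KO metastases, against 2495, 2489 and 2480 in Het metastases. Psmb6 had 4067, 3194 and 2776 in KO metastases, against 2755, 3027 and 2685 in Het metastases. Psmb7 had 4703, 5211 and 4790 in KO metastases, against 3325, 3057 and 4863 in Het metastases. It was lowest in Het replicates 1 and 2, and the 3 immunoproteasome genes were low in Het replicate 2. The mean level of the 11 other 20S subunits stayed within -0.05 to 0.07 of its average on every array, and that of the 20 regulatory particle subunits within -0.10 to 0.07. None of these genes, nor Psmb5, Psmb6 or Psmb7, passed the test. The log2 distance of Psmb8 from Psmb5, each relative to its mean, was 0.42, 0.70 and 0.33 in KO and -0.19, -1.72 and 0.45 in Het metastases.

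The 7 other loading factors measured had a median log2 difference of 0.12 and a mean level between -0.14 and 0.14 on every array. Erap1, the aminopeptidase that trims peptides for class I, had a Pearson's r of 0.96 to the members' mean over the 6 arrays, with 391.7, 515.4 and 485.4 in KO against 433.0, 285.8 and 462.4 in Het metastases. Calr, the chaperone calreticulin, had 5520, 6522 and 6092 in KO against 7581, 7514 and 7608 in Het metastases, a log2 difference of -0.33 (SE 0.17) without overlap that did not pass the test. That made 1 of 7 lower without overlap, against 8.91% of all probe sets. Of 18 other class I heavy chain and related genes, 8 had a probe set of their own and 3 passed the filter. These differed in order. H2-M3, a nonclassical chain for formylated peptides, had 195.0, 180.7 and 119.3 in KO against 143.2, 75.7 and 144.8 in Het metastases. H2-Q2, a Qa-region class I gene, had 95.1, 129.8 and 28.8 in KO against 77.6, 86.4 and 98.6 in Het metastases. Cd1d1, which presents lipids, was highest in Het replicate 2, with 259.5, 213.4 and 126.6 in KO against 171.4, 267.0 and 135.3 in Het metastases.

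Among the 24 listed regulators of class I transcription, 19 were tested and 0 passed. Nlrc5, the class I transactivator, had no probe set of its symbol alone and was not analysed here. Irf1, an interferon-induced activator of these promoters, had signals of 511.7, 645.9 and 443.9 in KO metastases, against 561.0, 358.1 and 553.8 in Het metastases. It was lowest in Het replicate 2 and highest in KO replicate 2, as most of the 9 genes were. Without overlap, 6 of the 19 were lower in KO, against 8.91% of all probe sets. These were Rfx5, Ifngr1, Rela, Nfyc, Jak1 and Jak2, the last 4 named after their values were seen. Rfx5, which binds the X box, had 401.0, 329.9 and 260.1 in KO against 480.3, 454.0 and 465.2 in Het metastases, a log2 difference of -0.50 (SE 0.31). Ifngr1, a chain of the interferon gamma receptor, had 310.2, 348.7 and 511.7 in KO against 515.7, 580.5 and 597.7 in Het metastases, a log2 difference of -0.54 (SE 0.34). Both had limma adjusted p = 0.9999.

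**Figure D5:**
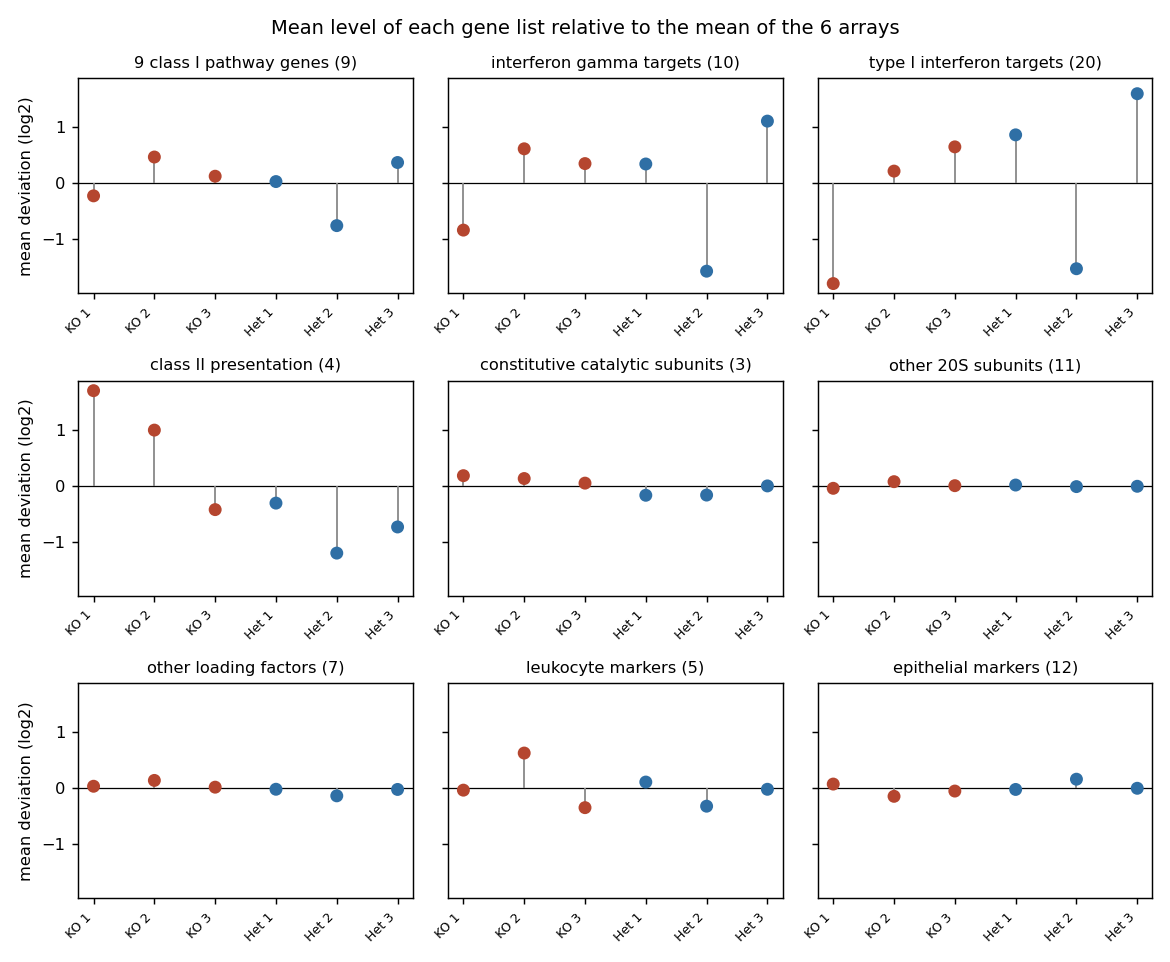
Mean log2(signal + 16) of each gene list relative to its mean over the 6 arrays, with KO arrays in red and Het arrays in blue; the number of tested genes is in brackets. The 9 class I pathway genes and the interferon gamma targets are lowest in Het replicate 2, as are the class II genes, which are highest in KO replicate 1.

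Targets of interferon gamma, as listed, had a median range of 2.65 over the 6 arrays, against 1.27 for the 9 genes (log2 scale). Their mean level lay at -0.84, 0.61 and 0.35 in KO and at 0.34, -1.57 and 1.11 in Het metastases on the log2 scale. Of the 13 with a probe set, 10 passed the filter. All 10 tested were lowest in Het replicate 2, and 9 were highest in Het replicate 3, whereas 7 of the 9 class I pathway genes were highest in KO replicate 2. The listed genes too dim to be tested were each highest in KO replicate 2. The GTPase gene Iigp1 had 549.6, 1970 and 3001 in KO against 1851, 371.4 and 3456 in Het metastases. The median log2 difference of this list was 0.11, and 0 of 10 passed the test.

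Type I interferon targets were highest in Het replicate 3 in 20 of 20 genes and lowest in KO replicate 1 in 17 of 20. Their mean level lay at -1.79, 0.21 and 0.65 in KO and at 0.86, -1.53 and 1.60 in Het metastases. KO replicate 1 was thus the lowest array for this list, whereas the class I pathway genes were lowest in Het replicate 2. Ifit1, an antiviral RNA-binding protein, had signals of 90.9, 671.8 and 901.0 in KO metastases, against 947.9, 150.0 and 2183 in Het metastases. Of the 20 genes, 0 passed the test.

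MHC class II genes ran in another order, with mean levels of 1.69, 0.99 and -0.43 in KO and -0.31, -1.20 and -0.74 in Het metastases. All 4 tested were highest in KO replicate 1, the KO array with the lowest level of all 9 class I pathway genes, and all 4 were lowest in Het replicate 2. Cd74, the invariant chain of class II, had 4798, 2671 and 855.4 in KO against 947.5, 368.0 and 599.4 in Het metastases. H2-Aa and H2-Ab1, chains of the class II dimer, had log2 differences of 1.92 (SE 0.91) and 1.34 (SE 0.65), and H2-DMa, which helps load class II, had 0.88 (SE 0.70). H2-Ab1 alone of the 4 was higher in KO without overlap, against 7.82% of all probe sets, and 0 of the 4 passed the test.

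Markers of other cell types are given beside these values, and their part in the class I levels was not tested. Of 7 pan-leukocyte markers, 5 passed the filter, and the summed signal of the 7 ran from 2074 to 4077 in KO and from 2115 to 2909 in Het metastases. Ptprc, which encodes CD45, had 590.5, 888.4 and 439.9 in KO against 576.8, 482.9 and 506.8 in Het metastases, and its highest array was also that of B2m. Of 13 T cell markers, 12 had a probe set and 1, Il7r, passed the filter. The other 11 with a probe set, among them Cd3d, Cd3e, Cd3g and Cd8a, were too dim to be tested. The summed signal of the 12 ran from 228.7 to 623.3 in KO and from 307.2 to 394.2 in Het metastases. Of 12 NK and cytotoxic markers, 11 had a probe set and 1, the chemokine gene Ccl5, passed the filter, with 75.5, 204.9 and 81.5 in KO against 249.0, 66.0 and 501.9 in Het metastases. The summed signal of the 11 ran from 267.3 to 563.3 in KO and from 296.9 to 814.8 in Het metastases.

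Of 12 macrophage markers, 9 passed the filter, and the summed signal of the 11 with a probe set ran from 6594 to 10608 in KO and from 9313 to 10801 in Het metastases. Lung alveolar markers, of which 10 of 12 were tested, lay at 1.44, 0.41 and -1.08 in KO and at 0.25, -0.60 and -0.42 in Het metastases. Their highest array was KO replicate 1, where class I levels were below their mean for 7 of the 9 genes. All 12 epithelial markers passed the filter, and their mean level lay at 0.07, -0.15 and -0.05 in KO and at -0.02, 0.16 and -0.004 in Het metastases. Single markers went both ways. Epcam had 6427, 5258 and 5857 in KO against 4158, 7450 and 5038 in Het metastases, whereas Krt18, a keratin of simple epithelia, was highest in KO replicate 1, with 15158, 11452 and 8895 in KO against 9869, 10883 and 9306 in Het metastases.

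Of 8 neutrophil markers, 6 had a probe set and 3 passed the filter, and all 3 were highest in KO replicate 2, the highest array for 7 of the 9 class I pathway genes. Their mean level lay at -0.93, 1.16 and 0.41 in KO and at 0.50, -0.75 and -0.40 in Het metastases (log2 scale). The summed signal of the 6 ran from 1408 to 8462 in KO and from 2137 to 4847 in Het metastases. S100a8, a calcium-binding protein of neutrophils, had 644.2, 4994 and 3088 in KO against 3325, 1534 and 2133 in Het metastases. The lowest array for S100a8 was KO replicate 1, and that for S100a9 and Csf3r was Het replicate 2.

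Of 10 fibroblast markers, 7 were tested and 4 were higher in KO without overlap, against 7.82% of all probe sets, and 0 passed the test. These 4 were the collagen genes Col1a1, Col1a2 and Col3a1, and Dcn, which encodes decorin. Their list lay at 0.56, 0.23 and -0.16 in KO and at -0.14, -0.29 and -0.20 in Het metastases. All 12 endothelial markers were tested, and all were highest in KO replicate 1. Their mean level lay at 0.77, 0.35 and -0.55 in KO and at 0.27, -0.40 and -0.43 in Het metastases. Of 8 dendritic cell markers, 1 passed the filter, Itgax, with 305.6, 285.9 and 69.7 in KO against 270.1, 133.4 and 164.0 in Het metastases. Of 8 B cell markers, 7 had a probe set and 0 passed the filter.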

How the data were processed

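Per the submitters' processing notes, MAS5 and Affymetrix Expression Console were used; their versions were not stated. The authors deposited intensity values on a linear scale, with a common trimmed mean on all arrays. Detection calls were not used here, and a dim signal may be background. Precision is limited by the 6 arrays.

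The table held 22690 probe sets, 64 of them controls; 20380 had 1 gene symbol, 691 several and 1555 none. By Entrez ID, 20351 matched a GRCm38.p6 gene table. Signals were taken as log2(signal + 16), which understates differences of dim genes. After leaving out controls, the dimmest 40% by mean log2 value were dropped, which kept 13575. The 3 Het arrays were averaged into 1 sample, since their titles share a number, and compared with 3 KO samples in limma 3.58.1 (R 4.3.3; lmFit, eBayes with trend, Benjamini-Hochberg over all probe sets kept, threshold 0.05). This takes the Het sample to vary as the KO samples do. The procedure was tested on simulated data.

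The members, lists and motifs were chosen with earlier results of these data known. The rule allowed naming all 9 members; up to 6 genes of each list with the largest range over the arrays, all genes of lists of 4 or fewer, with Irf1 and Nlrc5 added; and the 10 genes most correlated with the members' mean. Only some of the genes it allows are named, chosen with their values known. Alternatives covered the unit of replication, pseudocount, filter, normalization, probe set choice and each array left out.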

Additional observations from a re-analysis of the deposited data

How the results depend on the processing

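No member passed the test under any of the 14 alternatives, with limma adjusted p between 0.509 and 0.9999, and 0 probe sets were called under any of them. Tap2 and Psmb8 kept their direction under all 14. When any 1 array was left out, the log2 difference ran from -0.11 to 0.51 for B2m, from -0.03 to 0.31 for H2-K1, from -0.07 to 0.20 for H2-D1, from -0.37 to 0.44 for Tap1, from 0.17 to 0.23 for Tap2, from -0.55 to 0.09 for Tapbp, from 0.41 to 1.49 for Psmb8, from -0.01 to 0.93 for Psmb9 and from -0.22 to 0.30 for Psmb10. Signs turned without KO replicate 2 (H2-K1 -0.030, H2-D1 -0.072, Tap1 -0.19, Psmb10 -0.07), without KO replicate 3 (Tap1 -0.004), without Het replicate 2 (B2m -0.11, H2-D1 -0.04, Tap1 -0.37, Psmb9 -0.013, Psmb10 -0.22) and without Het replicate 3 (Tapbp 0.086); the cause was not tested. Tapbp was at 0.21 when its 2 probe sets were averaged, since they disagree. Tap1 was left out of the test by the filter in that setting and with 60% of dim probe sets removed. With any 1 array left out, the median difference of the 9 genes ran from -0.04 to 0.31 and the span of their mean level from 0.69 (without Het replicate 2) to 1.22. That span was 1.12 to 1.26 with other pseudocounts, normalization or probe set choice. The count of probe sets without overlap was 2270, and with fewer arrays to separate it ran from 3137 to 4956. A random block for the number in the titles gave 0 calls, with a fitted correlation of 0.31. No paired analysis was possible because the labels give no replicate numbers that pair KO with Het arrays. No groups of 4 or more arrays exist in which a single array could be tested as an outlier.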
